A study of Mus musculus with 6 samples.

Results

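The delta protocadherins were examined as a family of 10 genes, namely Pcdh1, Pcdh7, Pcdh8, Pcdh9, Pcdh10, Pcdh11x, Pcdh17, Pcdh18, Pcdh19 and Pcdh20, chosen by name among the 52390 genes listed in the count table. All 10 passed the filter on low counts, which 21844 genes passed in all. RNA-seq was performed on brain tissue from 6 male C57BL/6 mice, wild type by label, of which 3 formed the control group and 3 the AP1AR-DT_OE group. Mice had received an injection of recombinant adeno-associated virus into the medial prefrontal cortex (mPFC) at 8 weeks of age, which carried the empty vector in the control group. In the AP1AR-DT_OE group it carried AP1AR-DT, a human long non-coding RNA, driven in neurons by the promoter of human synapsin I. The vector also encodes EGFP, so the controls share the virus, the injection and the reporter. The study names the sequenced material as mPFC in one place and as cortical tissue in its methods, and which of these the libraries hold was not settled here. Library totals ranged from 42061721 to 54668294 counts, and the control libraries are numbered as the mice, whereas the AP1AR-DT_OE libraries, for which the column names give only the group, are called A, B and C. The table lists mouse genes, and the level of the human transgene was not analysed here. Each library is labelled as a separate mouse.

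Protocadherins are cadherin-type adhesion proteins of the plasma membrane that bind the same protein on a neighbouring cell and pass signals inwards through their cytoplasmic tails. Unlike the clustered alpha, beta and gamma protocadherins, the delta protocadherins are encoded by single genes scattered over the genome, and each is made by its own subset of neurons. In the forebrain they take part in axon growth, in the sorting of neurons into groups and in the formation and removal of synapses. The delta-1 genes (Pcdh1, Pcdh7, Pcdh9 and Pcdh11x) encode a tail with a docking motif for protein phosphatase 1, the 4 residues RVTF, and the delta-2 genes (Pcdh8, Pcdh10, Pcdh17, Pcdh18, Pcdh19 and, as counted here, Pcdh20) encode tails without it.

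The docking motif was sought in the translated coding sequences of the GENCODE vM21 annotation of GRCm38. It was present in 2 of 6 coding transcripts of Pcdh1, 5 of 7 of Pcdh7, 3 of 7 of Pcdh9 and 7 of 8 of Pcdh11x, and in 0 of those of each of the 6 delta-2 genes. Gene counts do not separate transcripts with the motif from those without it. The coding sequence around the motif is shown for the longest protein of Pcdh7, Pcdh9 and Pcdh11x. The sequence of Pcdh1, which also holds the motif, is not printed. The codons of the motif are in capitals. The first of its residues is number 1062, 1050 and 1053 of the Pcdh7, Pcdh9 and Pcdh11x proteins.
Pcdh7: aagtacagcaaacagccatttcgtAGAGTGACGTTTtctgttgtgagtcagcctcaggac
Pcdh9: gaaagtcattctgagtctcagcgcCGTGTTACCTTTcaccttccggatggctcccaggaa
Pcdh11x: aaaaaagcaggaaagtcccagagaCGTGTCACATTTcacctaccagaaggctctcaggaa
The 4 amino acids are the same in the 3 genes, but the codons differ.

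The levels of the family members were compared per length, as RPKM, in which counts are scaled by library size, with trimmed mean of M-values factors, and by the length of the longest annotated transcript. The mean over the 6 libraries was highest for Pcdh1 (42.6 RPKM), Pcdh8 (33.5) and Pcdh10 (26.9). Pcdh9 (12 RPKM), Pcdh17 (10.8) and Pcdh7 (9.66) formed a middle group. Pcdh19 (6.32 RPKM), Pcdh20 (4.96), Pcdh11x (3.03) and Pcdh18 (1.68) were lowest, and the highest mean was 25.4 times the lowest. Between neighbours in this order, the ranges over the 6 libraries were separate only between Pcdh10 and Pcdh9 and between Pcdh7 and Pcdh19, and those of the other neighbours overlapped. Within each library, Pcdh1 was above Pcdh8, Pcdh20 above Pcdh11x and Pcdh11x above Pcdh18 in 6 of 6 libraries. The order of Pcdh9 and Pcdh17 held in 4 of 6. With the mean length of all annotated transcripts in place of the longest, Pcdh7 (24.3 RPKM) moved above Pcdh9 (20.3) and Pcdh17 (18.4). The rest of the order of the means was kept, but Pcdh20 (6.05 RPKM) was above Pcdh11x (5.96) in only 3 of 6 libraries. The separate ranges between neighbours were then those of Pcdh1 and Pcdh8, Pcdh10 and Pcdh7, and Pcdh19 and Pcdh20, and the ranges of Pcdh17 and Pcdh19 overlapped.

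**Figure D1:**
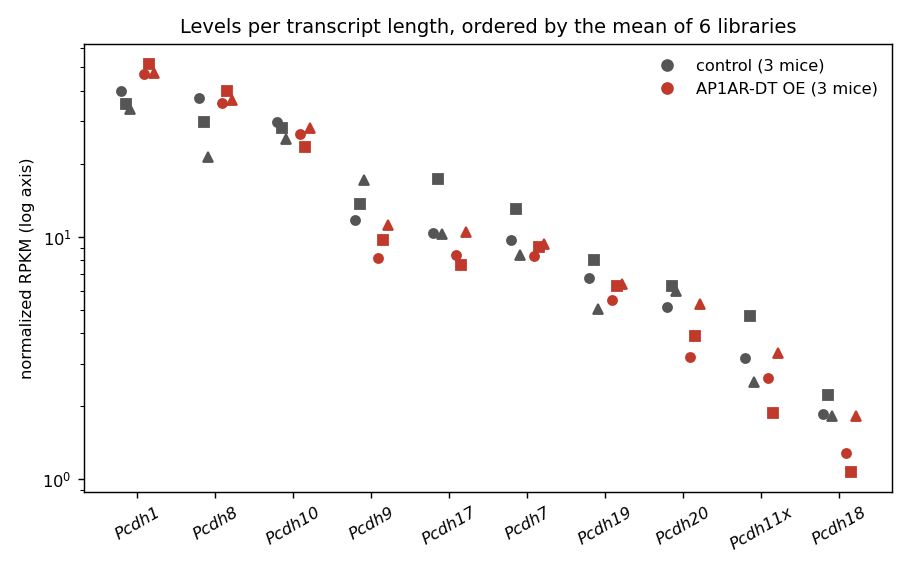
Normalized RPKM (log axis) of the 10 delta protocadherins in each of the 3 control (grey) and 3 AP1AR-DT_OE (red) libraries, ordered by the mean of the 6. Circles, squares and triangles are controls 1, 2 and 3 or libraries A, B and C, and a shared symbol does not pair mice. Pcdh1, Pcdh8 and Pcdh10 stand above 20 RPKM in every library, and Pcdh18 lies between 1.07 and 2.23 RPKM.

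To ask which members differed between AP1AR-DT_OE and control mice, counts were compared with edgeR's quasi-likelihood test over all genes tested. A gene was called at P under 0.05 and an absolute Log2FC above 0.32, the thresholds the study used for differentially expressed genes. Of the 10 members, 3 were called: Pcdh1 rose, and Pcdh9 and Pcdh20 fell. The background was 12.2% of all genes tested (2675 genes), with 5.1% called higher and 7.15% called lower in AP1AR-DT_OE mice. The Log2FC was below 0 for 8 of the 10 members, with a median of -0.32, against -0.014 over all genes tested. None of the 10 passed Benjamini-Hochberg adjustment over all genes in edgeR, where the lowest adjusted P was 0.295. Values per mouse are normalized CPM, counts scaled to the size of the library with the same factors. With 3 mice against 3, the exact two-sided permutation test on log2 CPM cannot give a P below 0.1.

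**Figure D2:**
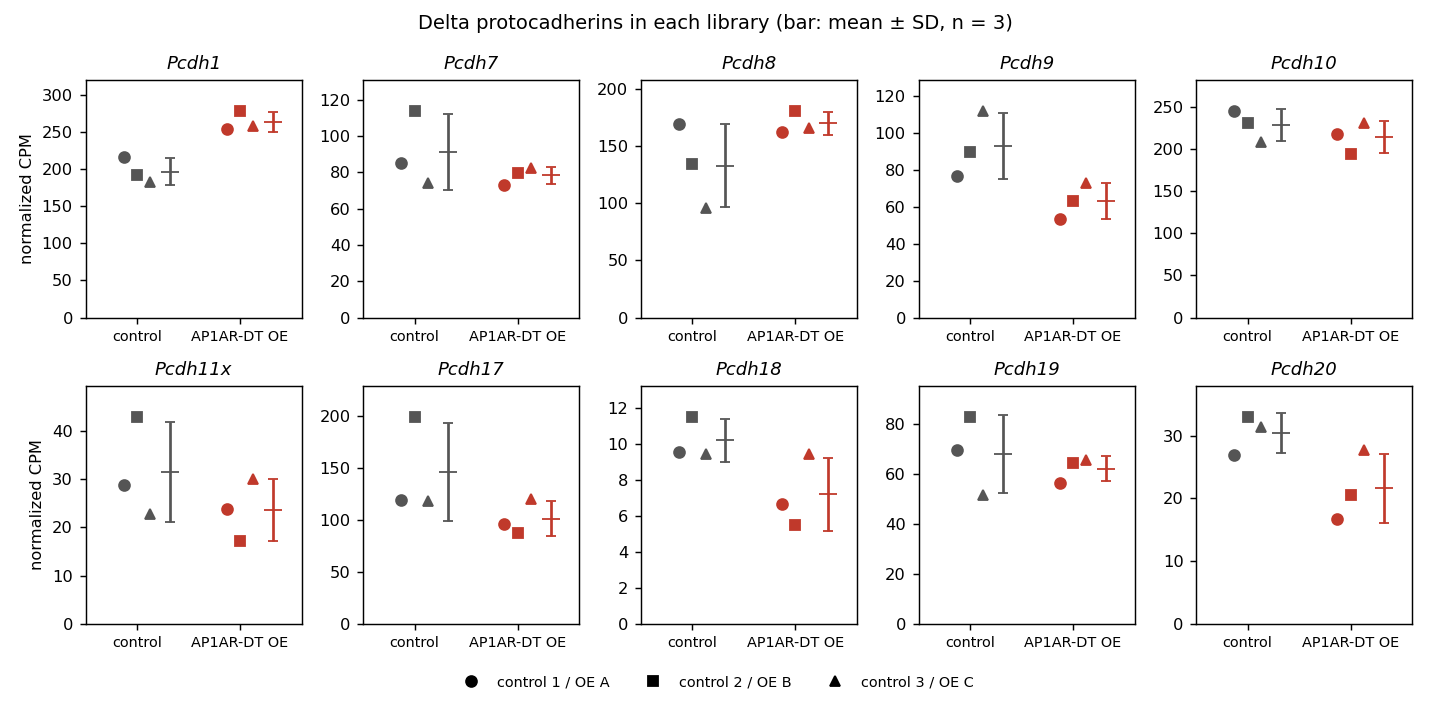
Normalized CPM of each delta protocadherin in the 3 control (grey) and 3 AP1AR-DT_OE (red) libraries, with the mean and SD (n = 3 mice) beside the points; each axis starts at 0, and a shared symbol does not pair mice. All 3 red points lie above the grey points for Pcdh1 and below them for Pcdh9, and the groups overlap for the other 8 genes.

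Pcdh9 is a delta-1 protocadherin of cortical neurons that is studied for its part in social and sensory behaviour. It stood at 76.4, 89.6 and 112 CPM in controls 1, 2 and 3, and at 53.4, 63.3 and 72.9 CPM in libraries A, B and C. Every AP1AR-DT_OE library was below every control library, although library C came close to control 1. The means were 92.7 ± 17.9 CPM in controls and 63.2 ± 9.72 in AP1AR-DT_OE mice (SD, n = 3), a Log2FC of -0.55 (SE 0.172, edgeR P = 0.0147, adjusted P = 0.295; exact permutation P = 0.1). Summed oligodendrocyte markers stood in the same order as Pcdh9 in the controls, at 5050, 6430 and 10600 CPM, and at 5080 to 5140 CPM in libraries A to C. Markers of oligodendrocyte precursors (523, 644 and 729 CPM), thalamus (160, 210 and 661 CPM) and microglia (217, 218 and 269 CPM) shared this control order. The other marker lists did not, and the part of any cell type in the Pcdh9 values was not tested. Without control 3, the control with the highest of these marker sums, the Log2FC of Pcdh9 was -0.38, and the gene was still called. Without library A it was -0.44, and Pcdh9 was then no longer called; it was called in the other 5 such fits.

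Pcdh1, a delta-1 protocadherin that is also known from airway epithelium and that binds the signal transducer Smad3, moved the other way. Its levels were 217, 192 and 183 CPM in controls 1 to 3 and 255, 279 and 258 CPM in libraries A to C. The groups did not overlap, and the spread within them was small, with a coefficient of variation of 8.91% in controls and 5% in AP1AR-DT_OE mice. The means of 197 ± 17.6 and 264 ± 13.2 CPM (SD, n = 3) gave a Log2FC of 0.42 (SE 0.0966, edgeR P = 0.00324, adjusted P = 0.295; exact permutation P = 0.1). Pcdh1 was called whichever mouse was left out. DESeq2 gave an adjusted P of 0.0251 for Pcdh1, and over all the fits made the adjusted P ran from 0.0251 to 0.661. Non-overlap of the groups, seen for 2 of the 10 members, was found for 22.4% of all genes tested.

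Pcdh20, which helps to position neurons of cortical layer 4 during development, was the other member called lower. It was measured at 26.9, 33 and 31.4 CPM in controls and at 16.7, 20.5 and 27.7 CPM in AP1AR-DT_OE mice. The groups overlapped, because library C was above control 1. The Log2FC was -0.49 (SE 0.195, edgeR P = 0.0395, adjusted P = 0.316; exact permutation P = 0.2), from 30.4 ± 3.16 to 21.6 ± 5.56 CPM (SD, n = 3). The call held when control 1 or library C was left out, and was lost in the other 4 such fits, with a Log2FC of -0.42 without control 2, -0.46 without control 3, -0.33 without library A and -0.45 without library B. It was also lost with library totals in place of normalization factors, at an unchanged Log2FC of -0.49.

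Pcdh17 and Pcdh18 had Log2FC of similar size but did not pass the test. Pcdh17, which acts in axon growth and at presynaptic sites, stood at 119, 199 and 118 CPM in controls and at 96, 87.6 and 120 CPM in AP1AR-DT_OE mice, with a Log2FC of -0.53 (SE 0.23, edgeR P = 0.0554; exact permutation P = 0.3). Control 2 was the high library, and without it the Log2FC was -0.22. It was called when control 1, control 3 or library C was left out. Pcdh18, the least abundant member and a binding partner of the adaptor Dab1, was at 9.56, 11.5 and 9.41 CPM in controls and at 6.64, 5.51 and 9.41 CPM in AP1AR-DT_OE mice, with a Log2FC of -0.50 (SE 0.223, edgeR P = 0.0592; exact permutation P = 0.2). Library C was level with the lowest control at the printed precision, and without library C the gene was called, at a Log2FC of -0.73.

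Pcdh8, also called arcadlin, is induced by neuronal activity and removes N-cadherin from synapses. It was at 169, 134 and 96.3 CPM in controls and at 162, 181 and 166 CPM in AP1AR-DT_OE mice. The control libraries spread far more than the AP1AR-DT_OE libraries, with coefficients of variation of 27.5% and 5.97%, and the Log2FC of 0.35 (SE 0.194) did not pass the test (edgeR P = 0.113; exact permutation P = 0.3). Without control 1 the Log2FC was 0.56 and the gene was called, as it was in no other such fit.

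The remaining 4 members gave overlapping groups and P above 0.05. Pcdh10, which promotes the removal of excitatory synapses together with Mef2 factors and Fmr1, was the steadiest member, at 245, 231 and 208 CPM in controls and 218, 194 and 231 CPM in AP1AR-DT_OE mice (Log2FC -0.093, SE 0.104, edgeR P = 0.404, exact permutation P = 0.4). Pcdh19, the X-linked gene whose mutation causes epilepsy mainly in females, was at 69.6, 82.8 and 51.6 CPM and at 56.3, 64.5 and 65.6 CPM (Log2FC -0.13, SE 0.174, edgeR P = 0.481, exact permutation P = 0.7). Both of these genes therefore kept their AP1AR-DT_OE values within or near the range of the controls. Pcdh7, which binds the protein Set, was at 85.4, 114 and 74.1 CPM and at 73.3, 79.7 and 82.2 CPM (Log2FC -0.22, SE 0.163, edgeR P = 0.219, exact permutation P = 0.4). Pcdh11x, the other X-linked member, was at 28.8, 42.9 and 22.8 CPM and at 23.7, 17.1 and 30.1 CPM (Log2FC -0.42, SE 0.282, edgeR P = 0.182, exact permutation P = 0.5). The Log2FC of Pcdh11x was near that of Pcdh1 in size, but its SE was the largest of the 10.

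By subfamily, 1 of the 4 delta-1 genes rose and 1 fell, with a median Log2FC of -0.32. Of the 6 delta-2 genes, 0 rose and 1 fell, with a median of -0.31. Over all genes tested, 5.1% were called higher and 7.15% lower, with a median of -0.014. With correction by GC content (described with the GC results) the medians of the subfamilies were -0.093 and -0.18. The difference between subfamilies was not tested.

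The libraries differed in which members they held most of. Control 2 exceeded the mean of controls 1 and 3 by a factor of 1.68 for Pcdh17, 1.66 for Pcdh11x, 1.44 for Pcdh7 and 1.37 for Pcdh19, against 0.951 for Pcdh9, 0.963 for Pcdh1 and 1.02 for Pcdh10. The same library had the lowest sum of excitatory neuron markers, 1310 CPM against 1950 to 3470 CPM in the other 5, and the highest sum of hypothalamic markers, 603 CPM against 6.61 to 75.7 CPM. Control 3 had the lowest Pcdh8 and Pcdh19 and the highest Pcdh9 of the 6, and it stood apart in choroid plexus markers, at 4000 CPM against 51.8 to 75.2 CPM, and in thalamic markers, at 661 CPM against 118 to 210 CPM. Library A had the lowest Pcdh9 and Pcdh20 of the 6. It also had the highest sum of striatal markers, 1530 CPM against 179 to 830 CPM in the other 5. Cortical markers were present in every library, with upper layer sums of 223 to 278 CPM and deep layer sums of 117 to 275 CPM. Defining markers at 0 in some library were Kcnj13 for choroid plexus and Oxt and Hcrt for hypothalamus. Of all genes tested, 7.15% were called lower and 5.1% higher in AP1AR-DT_OE mice. The markers called lower were 5 of 7 tested for choroid plexus, 4 of 7 for hypothalamus, 2 of 5 for thalamus, 2 of 6 for oligodendrocytes and 2 of 6 for astrocytes. Those called higher were 2 of 6 for microglia, 1 of 5 for endothelium and 1 of 7 for pericytes and fibroblasts. Of the cortical upper layer markers 1 of 4 was called in each direction, and 0 were called for excitatory and inhibitory neurons, oligodendrocyte precursors, striatum and cortical deep layers. Non-overlap of the groups was found for 22.4% of all genes tested. Among the marker sums it was found only for astrocytes (1910 to 2130 CPM in controls, 1770 to 1840 CPM in AP1AR-DT_OE mice) and endothelium (62.9 to 68.7 and 75.1 to 110 CPM). In whole tissue, fewer cells of a type and less RNA per cell cannot be told apart, and the part of these differences in the members' values was not tested. With both control 2 and control 3 left out, a fit in which the lone control is assumed to vary like the other mice, 0 of the 10 members and 7.59% of all genes tested (1796) were called, with a Log2FC of 0.29 for Pcdh1, -0.27 for Pcdh9 and -0.31 for Pcdh20.

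The members with GC-rich transcripts had the higher Log2FC, and the same trend ran through all genes tested. Over deciles of the GC content of the longest transcript, the median Log2FC of all genes tested ran from -0.303 in the lowest decile to 0.223 in the highest. Pcdh1 (60.7% GC) and Pcdh8 (59.3%), the only members with a Log2FC above 0, lay in the highest decile. Pcdh9 (42.6% GC), Pcdh20 (42%) and Pcdh10 (43.5%) lay in the second decile, with a median of -0.214, and Pcdh11x (36.3%) in the lowest. Pcdh7, Pcdh17 and Pcdh18 lay in the third, with a median of -0.134, and Pcdh19 (47.8%) in the fifth. Relative to its decile, the Log2FC was lower by 0.39 for Pcdh17, 0.37 for Pcdh18, 0.34 for Pcdh9 and 0.28 for Pcdh20, and higher by 0.2 for Pcdh1 and 0.13 for Pcdh8.

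**Figure D3:**
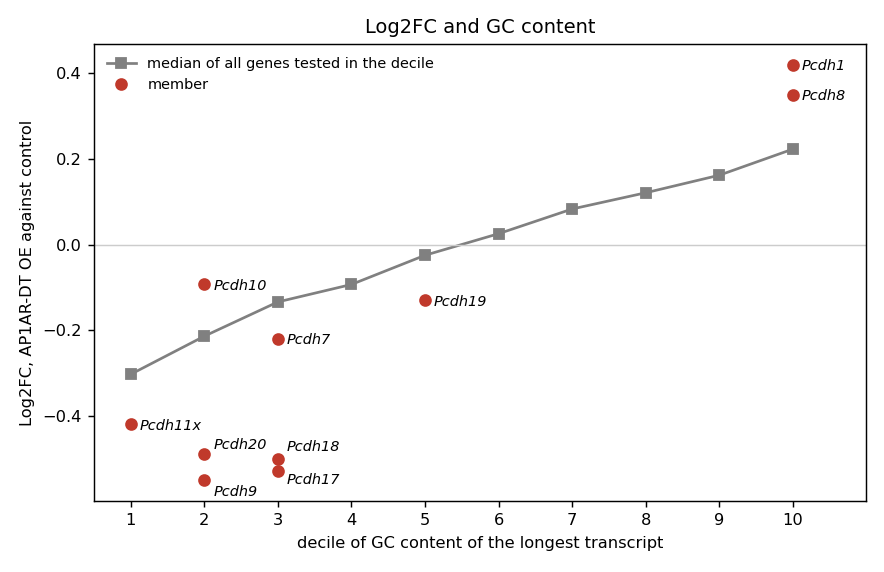
Log2FC of AP1AR-DT_OE against control mice for the 10 members (red points) by the GC decile of their longest transcript, with the median Log2FC of all genes tested in each decile (grey squares, -0.303 in the lowest to 0.223 in the highest). Pcdh1 and Pcdh8 lie above the line at its upper end, and Pcdh9, Pcdh17, Pcdh18 and Pcdh20 lie furthest below it.

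With GC content entered into the fit as an offset curve for each library, 0 of the 10 members and 7.18% of all genes tested were called, and the members' median Log2FC moved to -0.097. Pcdh9 then had a Log2FC of -0.35 (edgeR adjusted P = 0.558), Pcdh1 of 0.17 (adjusted P = 0.614), Pcdh20 of -0.27 (adjusted P = 0.64), Pcdh17 of -0.41 (adjusted P = 0.6) and Pcdh18 of -0.39 (adjusted P = 0.597), and the sign of Pcdh10 turned to 0.085. GC content was also averaged over all transcripts of each gene, an alternative added after the data were seen. In that fit 1 of the 10 members, Pcdh9, and 7.12% of all genes tested were called. The Log2FC of Pcdh9 was -0.38 (edgeR adjusted P = 0.543), and its unadjusted P lay only just under the threshold. Pcdh1 had a Log2FC of 0.20. Whether the trend with GC content arose in the tissue or in the libraries was not tested.

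**Figure D4:**
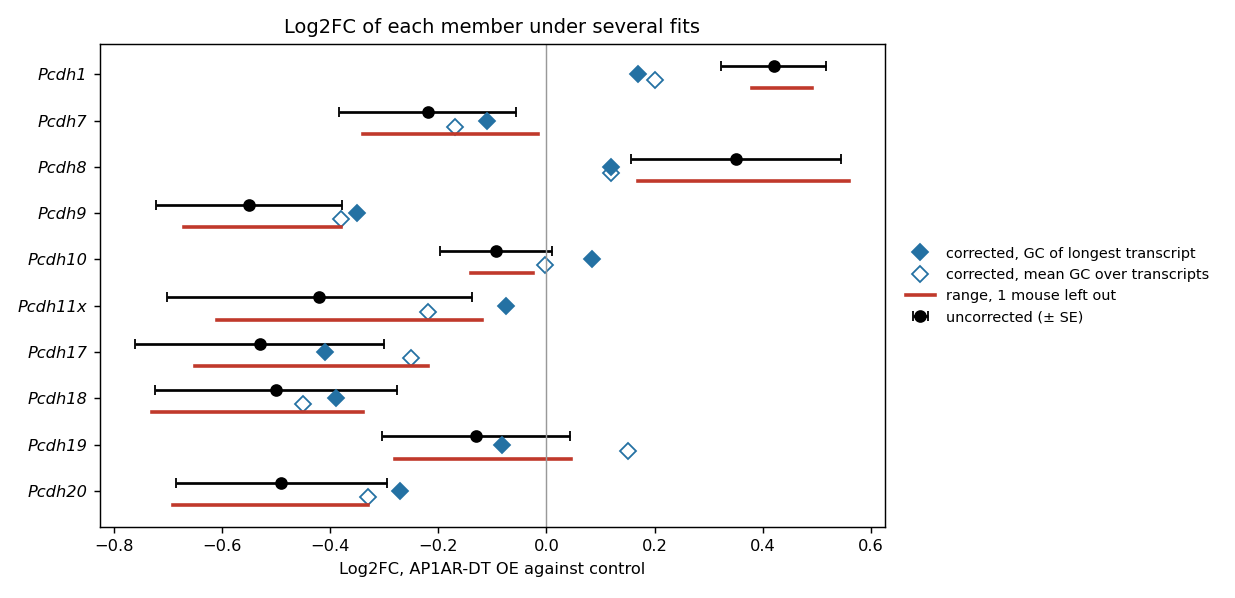
Log2FC of each member in edgeR without GC correction (black, with its SE), with correction by GC content, taken from the longest transcript (filled diamonds) or averaged over transcripts (open diamonds), and the range when 1 mouse was left out (red lines). The correction moved Pcdh1 from 0.42 to 0.17 and Pcdh9 from -0.55 to -0.35, and the red lines stay on 1 side of 0 for 9 of the 10 members, all but Pcdh19.

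The members lie on 5 chromosomes, with 4 of them on chromosome 14 of GRCm38 (GENCODE vM21). Pcdh8 (chr14:79766775-79771312, minus strand), Pcdh17 (chr14:84443563-84539002, plus strand), Pcdh20 (chr14:88464743-88471396, minus strand) and Pcdh9 (chr14:93013410-93890679, minus strand) follow each other over 14.12 Mb, with gaps of 4.67, 3.93 and 4.54 Mb. Between and around them in this span, 16 other genes were tested, of which 3 are protein-coding (Diaph3, Tdrd3 and Olfm4). Of the 16, 0 were called higher and 1, Diaph3, was called lower, with a median Log2FC of -0.053. Over all genes tested, 5.1% were called higher and 7.15% lower. Of the 4 protocadherins of this span, Pcdh9 and Pcdh20 were called lower, and Pcdh17 (-0.53) and Pcdh8 (0.35) were not called. Pcdh9 is by far the longest gene of the 4, at 877.3 kb against 95.4 kb for Pcdh17, 6.7 kb for Pcdh20 and 4.5 kb for Pcdh8.

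Promoters of these 4 neighbours are printed because their genes lie in 1 span, which holds both members called lower. The sequences are those of RefSeq (GRCm38.p6), which had an entry for 8 of the 10 members, and run from 250 bases before to 50 bases after the transcription start; capitals mark CCAAT or its reverse complement ATTGG.
Pcdh8 (chr14:79771263-79771562, minus strand): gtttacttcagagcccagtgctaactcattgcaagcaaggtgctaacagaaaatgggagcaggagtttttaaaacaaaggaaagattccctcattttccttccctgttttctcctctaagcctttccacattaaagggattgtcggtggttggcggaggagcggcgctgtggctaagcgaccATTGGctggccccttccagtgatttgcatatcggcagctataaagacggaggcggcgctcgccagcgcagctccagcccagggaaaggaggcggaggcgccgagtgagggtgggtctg
Pcdh17 (chr14:84443313-84443612, plus strand): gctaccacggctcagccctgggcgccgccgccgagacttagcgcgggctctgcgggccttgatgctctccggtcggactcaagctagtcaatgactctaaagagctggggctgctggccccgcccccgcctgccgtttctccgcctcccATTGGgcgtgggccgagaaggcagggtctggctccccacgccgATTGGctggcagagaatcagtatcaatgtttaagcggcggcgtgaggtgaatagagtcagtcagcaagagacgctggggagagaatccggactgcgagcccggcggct
Pcdh20 (chr14:88471347-88471646, minus strand): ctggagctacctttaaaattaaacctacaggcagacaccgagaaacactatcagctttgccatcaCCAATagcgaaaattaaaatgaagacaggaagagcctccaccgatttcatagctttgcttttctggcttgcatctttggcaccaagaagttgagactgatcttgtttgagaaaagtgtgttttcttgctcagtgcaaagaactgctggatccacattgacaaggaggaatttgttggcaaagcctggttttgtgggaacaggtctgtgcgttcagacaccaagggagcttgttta
Pcdh9 (chr14:93890620-93890919, minus strand): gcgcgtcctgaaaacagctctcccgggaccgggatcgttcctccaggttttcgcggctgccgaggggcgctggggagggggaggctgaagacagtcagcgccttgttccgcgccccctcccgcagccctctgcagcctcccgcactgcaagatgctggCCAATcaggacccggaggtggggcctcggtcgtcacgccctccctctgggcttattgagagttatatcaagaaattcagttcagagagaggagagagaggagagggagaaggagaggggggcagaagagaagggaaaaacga
The CCAAT motif, read on both strands and chosen after the sequences were seen, was found in 7 of the 8 members, all but Pcdh7, and in 37.4% of all 32851 promoters of this length. The nearest match lay 68 bases before the start in Pcdh8, 58 in Pcdh17, 92 in Pcdh9 and 185 in Pcdh20. RefSeq gives Pcdh9 another start, not printed, with the match 82 bases before it and 18 CpG in its promoter. The promoter of Pcdh20 held 4 CpG dinucleotides and 43.7% GC, against 26 CpG in Pcdh17, 19 in Pcdh9 and 14 in Pcdh8, and a median of 7 CpG and 52.7% GC over all promoters. TATAAA was found in Pcdh8 alone among the 8 members, and in 13.6% of all promoters. TGCGCA, a short core of the known motif of the transcription factor NRF1 searched on both strands, was found in 1 of the 8 members, Pcdh10, and in 7.8% of all promoters.

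Exonic bases of 4 members overlap a gene on the opposite strand, and nothing states that counting used strand. Pcdh7 shared 24.6% of its 100-base stretches with the antisense gene 4932441J04Rik, which had 166 to 372 counts in a library against 3474 to 5700 for Pcdh7. Pcdh8 shared 7.6% with the antisense gene Gm9748 (at most 31 counts), and Pcdh10 shared 0.7% with 1700027H10Rik (at most 9 counts). Pcdh19 overlaps Gm26851, which was not analysed here, without a shared stretch of this length, and the other 6 members, with Pcdh1, Pcdh9 and Pcdh20 among them, shared 0 such stretches with another gene. A processed pseudogene inside the Pcdh9 gene, Gm9247, had up to 3941 counts but no exonic bases in common with Pcdh9.

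Genes for reported binding partners and downstream effectors of delta protocadherins were taken as a list of 25, all of which were tested. All P in the lists of genes are adjusted over all genes tested, and calls rest on the unadjusted P. Of the 25, 6 rose and 2 fell, 32% of the list against 12.2% of all genes, and their median Log2FC was -0.10. The list was chosen with earlier results of these data known, so its share is only a description and was not tested. The largest difference was in Wasf2, a subunit of the WAVE actin-regulating complex that several delta-2 tails recruit, which fell from 37.8 ± 3.43 to 11.2 ± 1.35 CPM (SD, n = 3; Log2FC -1.75, SE 0.136, edgeR adjusted P = 0.0209). Brk1, a small subunit of the same complex, rose (Log2FC 0.42, edgeR adjusted P = 0.305). The catalytic subunits of protein phosphatase 1 that dock on delta-1 tails rose for Ppp1ca (Log2FC 0.35, edgeR adjusted P = 0.296) and Ppp1cc (0.34, adjusted P = 0.309). Smad3, the partner of Pcdh1, rose (0.55, adjusted P = 0.3), as did the transcription factor Mef2d (0.33, adjusted P = 0.295) and the postsynaptic scaffold Dlg4 (0.34, adjusted P = 0.309). Cdh2, the N-cadherin that Pcdh8 removes from synapses, fell (-0.33, adjusted P = 0.296). The list's count of 8 depended on single mice, with 4 called without control 2, 1 without library A and 2 without library B. Calls over all genes tested also fell in those fits, to 9.79%, 7.19% and 6.33%, against 12.2% with all mice. With GC correction 6 were called, and Mef2d and Ppp1ca were the ones lost.

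Without GC correction, the other cadherins were called at shares nearer to the background of 12.2% than the 3 of 10 members. Members and lists were chosen with earlier results of these data known, so this contrast is only a description and was not tested. Of 24 classical cadherins and catenins tested, 0 rose and 3 fell (12.5%), namely Cdh12 (Log2FC -1.05, edgeR adjusted P = 0.295), Cdh2 and the catenin Ctnna1 (-0.43, adjusted P = 0.303). Of 14 large and atypical cadherins tested, Clstn1, an adaptor for axonal transport, rose (0.36, adjusted P = 0.295) and Pcdh15, known from the hair cells of the inner ear, fell (-1.18, adjusted P = 0.295), while Celsr2 was next by P (0.28, adjusted P = 0.391). Of 57 clustered protocadherins tested of the 58 listed, 3 rose and 1 fell (7.02%), with a median Log2FC of 0.012. Those that rose were Pcdhgc5 (0.73, adjusted P = 0.295), Pcdhga12 (0.90, adjusted P = 0.295) and Pcdhga3 (0.33, adjusted P = 0.296), and the one that fell was Pcdha7 (-0.69, adjusted P = 0.295). With GC correction, Clstn1 and Pcdhga3 were no longer called. The counts became 0 higher and 2 lower among large and atypical cadherins, and 2 higher and 2 lower among clustered protocadherins. They were 0 higher and 3 lower among classical cadherins and catenins. In that fit 7.18% of all genes tested and 0 of the 10 delta protocadherins were called, so the family's higher share was not kept. The alpha and the gamma protocadherins share their last exons within a cluster, so reads there could be split between genes.

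The genes whose log2 CPM over the 6 libraries was most like that of each member were sought among 13996 genes, as a description in which group differences and shared libraries both count. For Pcdh9 these were Cp (Pearson r = 0.9994), Cfap65 (0.9963) and Rasa1 (0.996), where the 100th most alike gene still had r = 0.966. For Pcdh1 they were Manbal (0.995), B4galt5 (0.9919) and Etv5 (0.9916), and for Pcdh20 Stam (0.9975), Sema3d (0.994) and Trip4 (0.9917). With 6 libraries and this many genes such values are common, as the 100th gene shows. The 3 nearest genes were Poglut1, Sardh and Dzip1 for Pcdh7, Gm7153, Micos10 and Preb for Pcdh8, Gria2, Rnf139 and Stk26 for Pcdh10, and Pabpc1l2b, Gm5117 and Ubn2 for Pcdh11x. They were Sdad1, Tulp4 and Dop1a for Pcdh17, Pspc1, Ncoa4-ps and Pwwp3b for Pcdh18, and Txndc12, Rtl9 and Pcyox1 for Pcdh19. No member of the family was among the 3 genes nearest to another.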

How the data were processed

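RNA was sequenced from 6 mouse brain samples. Per the study's methods, reads were aligned with Bowtie2 (default parameters, an aligner that does not split reads at introns) to GRCm38 and quantified with StringTie against GENCODE. The authors deposited counts per gene, derived by StringTie's script from coverage. Versions of these tools are not given in the sources used here. The submitters' processing notes name another build (mm9) and TopHat2 2.0.4, so positions are those of GRCm38 in the reference annotation, matched by gene ID, and not of the deposited table. The deposited table also holds the authors' own comparison (base mean, fold change, its error, statistic and p-values), which was not used.

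Genes were filtered with filterByExpr, normalized with TMM factors and compared with glmQLFTest of edgeR 4.0.16 (R 4.3.3), two-sided. The thresholds were P under 0.05 and an absolute Log2FC above 0.32, with Benjamini-Hochberg adjustment over all 21844 genes tested. SE is the Log2FC divided by the square root of F. Alternatives used DESeq2 1.42.0, limma-voom (limma 3.58.1), other scalings and filters, offsets for GC content or transcript length (splines with 5 degrees of freedom, fitted over 14012 genes), and each mouse left out in turn. The code was tested on simulated data. Precision is limited by 3 mice a group (common biological coefficient of variation 0.313), and libraries held 42061721 to 54668294 counts; mitochondrial genes took 7.2 to 9.86% of counts in controls and 5.75 to 6.8% in AP1AR-DT_OE mice.

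Members and gene lists were chosen with earlier results of these data known. Named genes are the 10 members, the genes called in each list (the 3 with the smallest P where fewer than 3 were called), and the 3 genes most correlated with each member. Column names pair no AP1AR-DT_OE library with a mouse number.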

Additional observations from a re-analysis of the deposited data

How the results depend on the processing

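The 3 calls among the 10 members and their median Log2FC of -0.32 were recomputed under each alternative. DESeq2 called 5 members (Pcdh17 and Pcdh18 in addition) and 2965 of all genes against 2675. Library totals without TMM factors left 2 members called, without Pcdh20, and 2585 of all genes. Correction for GC content left 0 members called and a median of -0.097, with 1569 of all genes called; with GC averaged over transcripts, added after the data were seen, 1 member, 1556 genes and 3 of the reported partners were called. With control 2 and control 3 both left out, also added later, 0 members, 2 partners and 1796 of all genes were called. Correction for transcript length left 5 partners called against 8, with 2610 of all genes called. Leaving out 1 mouse at a time gave 1 (without library A) to 5 members called (without control 1 or library C), medians from -0.43 to -0.097 (without control 2), 1430 (without library B) to 3508 genes called, 1620 without library A, and 1 to 10 partners called. Of all genes tested, 7.19% were called without library A, 15% (3391) without control 1 and 15.6% without library C, against 12.2% with all mice. The sign turned for Pcdh10 with correction for GC content (0.085) or length (0.028), and for Pcdh19 with correction for length (0.024) or mean GC (0.15) and without control 2 (0.045, against -0.28 without control 3). The other 8 members kept their sign in all 17 fits, and P was under 0.05 in 14 of them for Pcdh1 and for Pcdh9. Against the main edgeR fit, the median change in Log2FC over all genes was largest in size with correction for length, at -0.029. No paired analysis was possible because the labels give the groups only 1 replicate number in common and the AP1AR-DT_OE columns carry no mouse number.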
